A study of Mus musculus with 6 samples.

Results

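The genes described here encode actins and the proteins that bind, cross-link, cut, cap or pull on actin filaments, as measured in 2T3 cells, an immortal mouse pre-osteoblast line. With earlier results of these data known, they were chosen by gene symbol. The rule was a fixed set of name stems and 20 full symbols, with 1 probe per symbol. This gave 60 of the 8841 genes with a single symbol and a value on the arrays. Of these 60, 6 share only letters with the actin families, namely Tpmt, Cflar and Cnnm1 to Cnnm4, and 54 encode actin-related proteins. Pxn and Tes, 2 of the full symbols, had no probe with that single symbol. Total RNA was profiled on 1 array per sample in 3 samples exposed to simulated microgravity on a Random Positioning Machine, which keeps turning the culture about changing axes, and in 3 samples kept static. Both groups grew in OptiCells, which are closed culture cassettes, and all samples are of the same line with no other treatment named in the labels. The sources used here do not say how long the exposure lasted. The labels do not state whether the 3 samples of a group were separate cultures, so each p-value measures spread among samples that may be technical replicates.

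Actin monomers assemble into polar filaments that the cell builds, branches, caps, severs and contracts. In bone-forming cells these filaments tie adhesion sites to contractile myosin, and their assembly is known to control the transcription factor SRF through cofactors that bind free actin monomers. SRF binds a DNA element called the CArG box, found close to the start of many actin and muscle genes.

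Intensities are given relative to the median of their array, so that 1 is the median probe. Values below a floor of 0.1 were set to 0.1. The deposited values of the 6 arrays had medians of 0.908 to 0.927 and numbered 10337 to 10432 per array, and precision is limited by having 3 arrays in each group. Values at the floor were rarer on microgravity 2 (6.44%) and static 2 (9.16%) than elsewhere (17.1% to 19.8%). Of the osteoblast markers with a probe, 10 were tested, and Sparc, Postn, Col1a1 and Col1a2 had intensities above 10 on every array. Ibsp (0.154 to 0.289), Phex (0.149 to 0.239) and Dlx5 (0.616 to 0.868) were below the median on every array. Dmp1, a marker of osteocytes, was too, and lay at the floor on 5 of 6. Summed over the 10 markers, intensity was 201 to 255 in microgravity and 308 to 441 in static cells. Sparc alone had 116 to 154 and 173 to 246, in the same order. The markers Alpl and Pth1r fell in the test described below, which 0.28% of all genes passed, and 0 of the 10 rose. The part of this in the actin genes' values was not tested. RNA was taken from whole cultures, so fewer cells of a type and less RNA per cell cannot be told apart.

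Some of these genes have a CArG box near their start, which their choice did not use. The box was counted only where it read CC, then A or T alone, then GG, 10 bases in all. Promoter windows of 300 bases, from 250 before to 50 after an annotated start, were taken from RefSeq on GRCm38.p6 and matched by gene identifier for 55 of the 60 genes. Not matched were Actb, Actg2, Actn3, Capza3 and Myh11. A CArG box, which reads as the same class of sequence on both strands, lay in a window of 12 of the 55 genes (21.8%), against 488 of 27025 genes in the table (1.81%) and 130 of 6867 genes tested on the arrays (1.89%). None of the 12 came from the genes matched by letters only. Counted per window, 535 of all 32851 windows (1.63%) held the box. Stretches of 100 bases of these windows are printed for 7 genes, 5′ to 3′ on the gene's strand with the boxes in capitals, because they show the element in genes of different roles. The coordinates are those of Srf at chr17:46556180-46556279 (minus strand), Actg1 at chr11:120348531-120348630 (minus), Acta1 at chr8:123894794-123894893 (minus), Vcl at chr14:20929148-20929247 (plus), Cnn2 at chr10:79988499-79988598 (plus), Fhl2 at chr1:43163962-43164061 (minus) and Myl6 at chr10:128493010-128493109 (minus).
Srf: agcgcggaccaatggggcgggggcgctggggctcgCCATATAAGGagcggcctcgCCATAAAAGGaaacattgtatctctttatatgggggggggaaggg
Actg1: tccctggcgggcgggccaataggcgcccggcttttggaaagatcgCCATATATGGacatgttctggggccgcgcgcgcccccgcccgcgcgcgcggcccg
Acta1: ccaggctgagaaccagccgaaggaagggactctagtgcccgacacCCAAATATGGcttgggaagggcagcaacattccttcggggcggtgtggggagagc
Vcl: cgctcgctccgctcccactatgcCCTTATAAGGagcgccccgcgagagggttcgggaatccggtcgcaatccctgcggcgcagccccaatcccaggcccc
Cnn2: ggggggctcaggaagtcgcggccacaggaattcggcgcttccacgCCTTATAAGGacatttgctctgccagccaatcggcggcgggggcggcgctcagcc
Fhl2: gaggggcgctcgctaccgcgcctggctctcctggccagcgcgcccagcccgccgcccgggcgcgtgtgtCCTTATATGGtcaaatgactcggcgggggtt
Myl6: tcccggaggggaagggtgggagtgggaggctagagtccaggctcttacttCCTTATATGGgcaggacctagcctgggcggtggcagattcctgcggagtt

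A match is a description of the letters and not a measured binding site. Srf, whose protein binds the element, held a pair of boxes that began 82 and 62 bases before its start. In the other printed stretches the box began between 31 bases (Fhl2) and 227 bases (Vcl) before the start. Boxes were also present in windows of Arpc4, Fhl1, Myl3, Myl7 and Vil1.

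For most of the actin genes the estimated change between the groups was under 1.5-fold either way, though many intervals were wider. Of the 60, 57 could be tested, and Capza3, Myh7 and Myl10 lay at the floor on every array and were left out. Genes were compared with limma over all 10146 probes with Benjamini-Hochberg adjustment and a threshold of 0.05. Of the 57, 2 fell in simulated microgravity, 0 rose and 55 did not pass, while 24 of 8586 genes on the arrays passed (0.28%; 0.198% lower and 0.0815% higher). The genes that fell were the alpha-actinin Actn3 and the severing protein Gsn. The set was chosen with earlier results of these data known, so its shares are descriptions and not a test. At an unadjusted p under 0.05 there were 7 of the 57 (12.3%), 6 lower and 1 higher, against 11.5% of all genes tested (5.7% lower and 5.79% higher), so the share was near the background. By sign alone 33 genes were lower and 24 higher, and 43.5% of all genes were lower. The median log2 change was -0.02 over the 57 genes and 0.05 over all genes tested, and the median size of the change without its sign was 0.17 and 0.20. Log2 changes ran from -1.67 to 0.82, and 5 of the 57 (8.77%) were 1.5-fold or more either way, against 10.3% of all genes. For 40 of the 57 genes (70.2%) the 95% interval of the change lay within 2-fold either way, as it did for 69.9% of all genes.

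**Figure D1:**
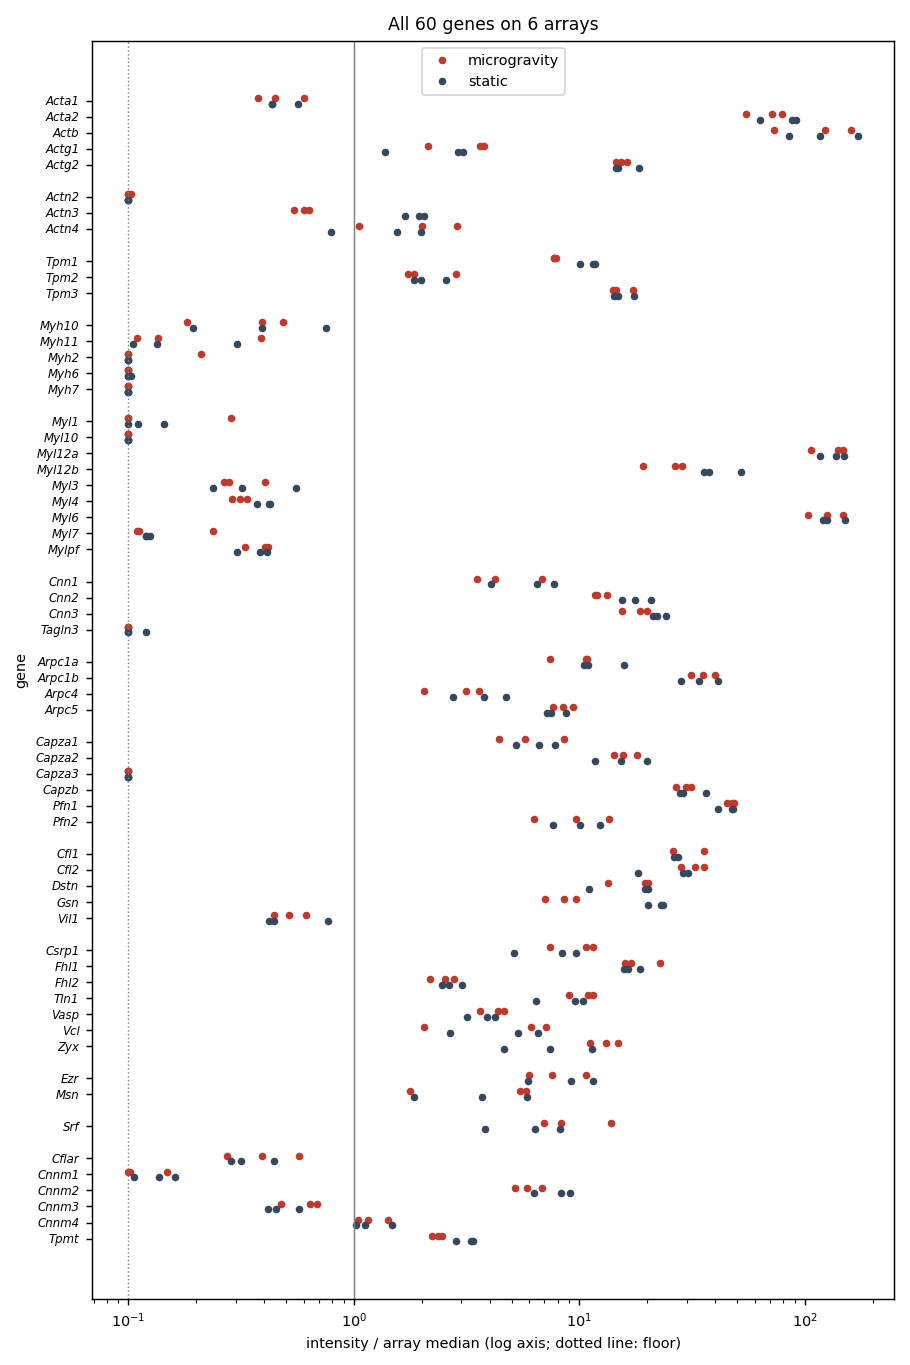
Intensity relative to the array median (x axis, log scale) of all 60 genes (y axis, grouped by role). Red points are the 3 microgravity arrays and dark points the 3 static arrays, the solid line is the array median and the dotted line the floor of 0.1; the dark and red points of Actn3 and Gsn stand apart, while those of most other genes mix.

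**Figure D2:**
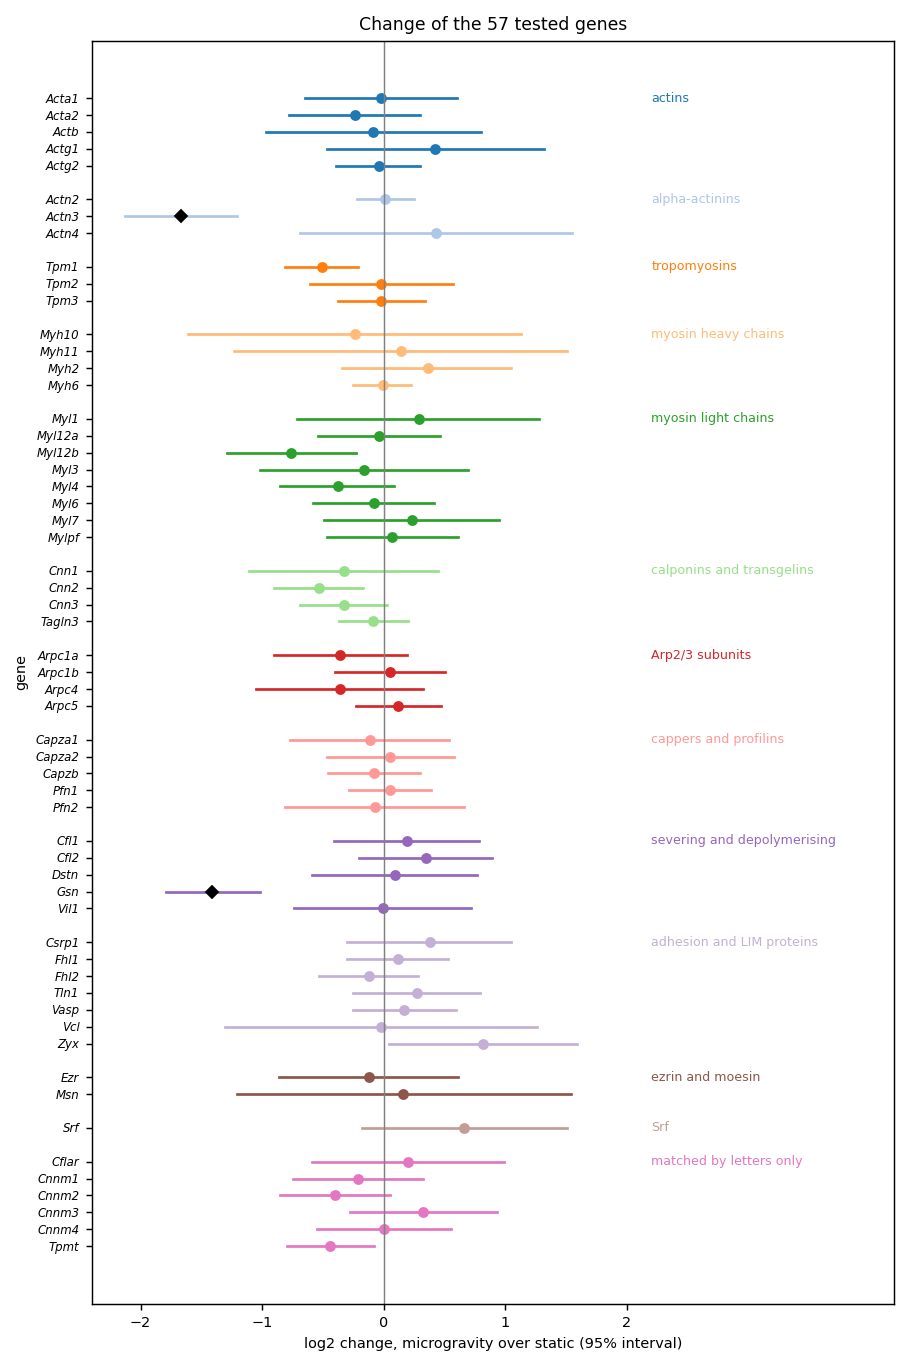
Log2 change of intensity, microgravity over static (x axis), of the 57 tested genes (y axis, grouped by role). Points are limma estimates, lines are 95% intervals and black diamonds are the 2 genes past the threshold, Actn3 at -1.67 and Gsn at -1.41.

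The actins themselves, the subunits of the filament, did not pass in any of 5 cases by limma, and none of the 5 had an unadjusted p under 0.05. The cytoplasmic beta-actin Actb had 123, 73.0 and 160 in microgravity 1, 2 and 3, against 117, 172 and 85.3 in static 1, 2 and 3. Both groups spread over about the same range, and the log2 change of -0.09 had a 95% interval from -0.97 to 0.80 (limma adjusted p = 0.98). The sign of this change turned without microgravity 2 (0.23) or without static 2 (0.18). The cytoplasmic gamma-actin Actg1 averaged 3.18 ± 0.903 in microgravity and 2.44 ± 0.933 in static cells (SD, n = 3 each), and its groups overlapped. The smooth muscle actins Acta2 and Actg2 had log2 changes of -0.24 and -0.04. For Actg2 the interval ran from -0.39 to 0.30, which lies inside 1.5-fold either way. Skeletal muscle actin Acta1 was below the array median on all 6 arrays, at 0.377 to 0.603 in microgravity and 0.435 to 0.563 in static cells. The probes' sequences were not used here, so sharing of signal between near-identical genes such as Actb and Actg1, Acta2 and Actg2, or Myl12a and Myl12b was not tested.

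Alpha-actinins cross-link filaments, and the isoform of fast skeletal muscle, Actn3, fell 3.19-fold. Its intensity was 0.602, 0.542 and 0.633 in microgravity 1, 2 and 3, against 1.95, 2.04 and 1.69 in static 1, 2 and 3. All microgravity values were below the array median and all static values above it, with no value between the groups (log2 change -1.67, SE 0.19, limma adjusted p = 0.0394). Without any single array no gene passed, and the adjusted p of Actn3 was then 0.122 to 0.251, with log2 changes of -1.75 to -1.61. The non-muscle isoform Actn4 had 2.86, 2.00 and 1.05 in microgravity, against 0.792, 1.99 and 1.55 in static cells. These overlapped widely (log2 change 0.43, 95% interval -0.69 to 1.55). The change of Actn4 was 0.05 without static 1, 0.11 without microgravity 1, 0.71 without static 2 and 0.83 without microgravity 3. Actn2, of cardiac and skeletal Z-discs, lay at the floor on 5 of 6 arrays.

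Other isoforms of striated muscle were mostly dim. Of 11 such genes in the set (Acta1, Actn2, Actn3, Myh2, Myh6, Myh7, Myl1, Myl3, Myl4, Myl7 and Mylpf, grouped after their values were seen), the other 10 were below the array median on all 6 arrays, with 0.603 as their highest value. Cardiac muscle actin (Actc1), which the symbol rule does not take and which was looked up after the other values were seen, was above the median on all 6 arrays. It had 1.13, 1.15 and 1.73 in microgravity, against 1.80, 1.09 and 1.59 in static cells, with overlap (limma adjusted p = 0.928). Muscle markers outside the set were mostly dim as well. Of 25 skeletal and cardiac muscle markers with a probe, 20 were below the median on every array on which they had a value, and the muscle regulators Myod1 and Myog did not exceed 0.142 and 0.104. Tnnt2 and Tnnt3, troponins of the sarcomere, were at the floor throughout. The troponin Tnni1 was above the median, with 3.77 and 4.99 in microgravity 1 and 3, against 7.47 and 4.08 in static 1 and 3. Its cells were empty on microgravity 2 and static 2. Chrna1 was above the median too, with 1.08 and 1.59 in microgravity 1 and 3 and 1.31 to 1.89 in static cells. Tnni2 and Atp2a1 were above it on some arrays. Of the 23 that could be tested 0 fell and 1 rose (4.35%, against 0.28% of all genes past the threshold). The 1 was Cox6a2, a muscle form of a respiratory subunit (ratio 2.67, limma adjusted p = 0.0394). Summed intensity of the whole list, with empty values counted as 0, was 29.8 to 41.4 in microgravity and 17.1 to 22.7 in static cells. Without Cox6a2 it was 9.04, 4.67 and 11.4 in microgravity 1, 2 and 3, against 13.6, 5.79 and 10.0 in static 1, 2 and 3. Without Cox6a2 and the markers with an empty value, the remaining 21 summed to 4.10 to 4.73 in microgravity and 3.74 to 4.54 in static cells. The markers left out for an empty value include Tnni1 and Chrna1. The part of these markers in the change of Actn3 was not tested.

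Gsn encodes gelsolin, which severs filaments and caps their fast-growing ends in response to calcium, and which is also secreted. It fell 2.65-fold. Intensity was 8.59, 9.70 and 7.05 in microgravity 1, 2 and 3, against 23.0, 23.5 and 20.2 in static 1, 2 and 3. The highest microgravity value was below the lowest static value by more than the spread within either group (log2 change -1.41, SE 0.16, limma adjusted p = 0.0394). Its adjusted p without any single array was 0.0953 to 0.251, with log2 changes of -1.51 to -1.28. It also missed the threshold with limma's variance model without an intensity trend (adjusted p = 0.0506). Among the 19 probes on the arrays that fell, Actn3 had the 10th and Gsn the 16th largest log2 change.

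The other severing and depolymerising proteins had no such difference. Cofilin, which cuts filaments and frees monomers, had 26.1 and 35.6 in microgravity 1 and 3, against 26.3 and 27.3 in static 1 and 3, for the non-muscle gene Cfl1. Its cells were empty on microgravity 2 and static 2, so its change (0.19, SE 0.23) rests on 4 arrays. Cfl2, the muscle cofilin, averaged 32.2 ± 3.77 in microgravity and 25.8 ± 6.58 in static cells. Destrin (Dstn), a close relative of cofilin, averaged 17.7 ± 3.73 and 17.0 ± 5.15 in the same order, and the groups of both genes overlapped. The epithelial villin gene Vil1 was below the array median on every array.

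**Figure D3:**
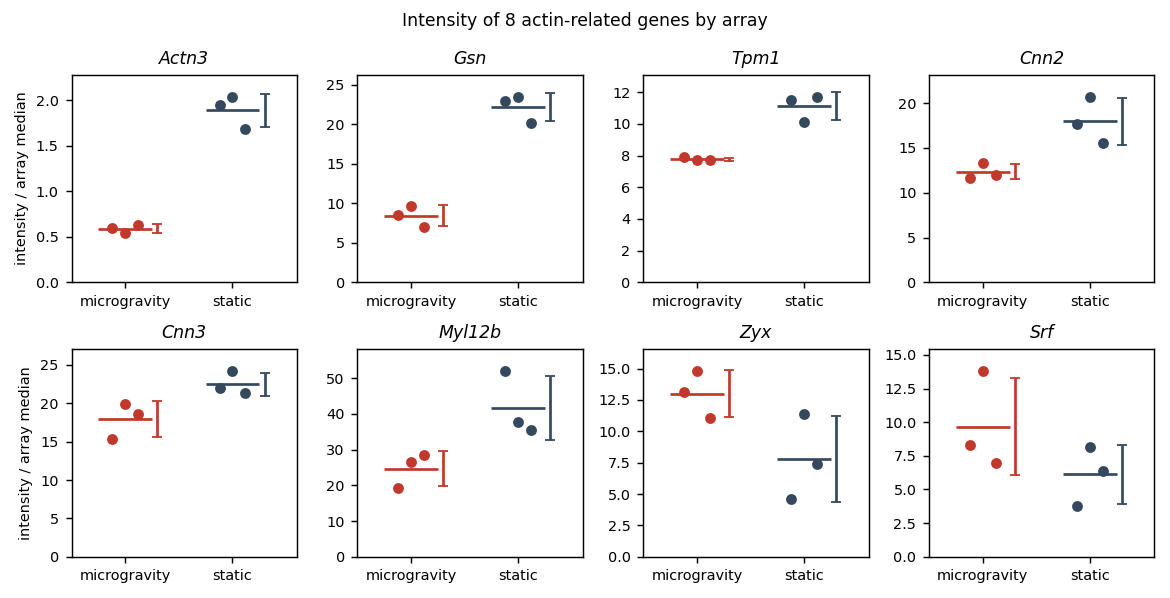
Intensity relative to the array median (y axis, linear from 0) on the 3 microgravity and 3 static arrays (x axis) for Actn3, Gsn, Tpm1, Cnn2, Cnn3, Myl12b, Zyx and Srf. Points are arrays, horizontal lines are means and bars are SDs (n = 3); in the first 6 panels all microgravity points are below all static points, and in the Zyx and Srf panels the groups overlap.

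Groups did not overlap in 8 of the 57 genes (14.0%), against 16.6% of all genes, so again the share was near the background. All 8 were lower in microgravity (8.07% of all genes were) and 0 were higher (8.51%). Beside Actn3 and Gsn they were Tpm1, Cnn2, Cnn3, Myl12b, Myl4 and the letter match Tpmt. None of these 6 passed the threshold by limma.

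Tropomyosins lie along the filament and set which proteins reach it. Tpm1 had 7.88, 7.71 and 7.72 in microgravity 1, 2 and 3, against 11.5, 10.1 and 11.7 in static 1, 2 and 3. The microgravity values were nearly equal to each other and all lower (ratio 0.702, log2 change -0.51, SE 0.13, limma adjusted p = 0.182). Tpm3 differed little, with 14.5, 17.3 and 14.1 in microgravity, against 14.2, 17.5 and 14.9 in static cells (log2 change -0.02, 95% interval -0.38 to 0.34). Tpm2 averaged 2.14 ± 0.608 in microgravity and 2.14 ± 0.379 in static cells. In the 17 alternative fits Tpm1 kept its sign, with log2 changes of -0.58 to -0.47 and adjusted p-values of 0.0842 to 0.653.

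Calponins bind actin and dampen the activity of myosin. All 4 genes of the calponin and transgelin class had lower values in microgravity, as had 43.5% of all genes tested. By limma 0 of the 4 passed the threshold and 1 had an unadjusted p under 0.05, as had 11.5% of all genes. Cnn2 had 11.7, 13.3 and 12.0 in microgravity 1, 2 and 3, against 17.7, 20.7 and 15.5 in static 1, 2 and 3. The groups were separate (ratio 0.692, log2 change -0.53, SE 0.15, limma adjusted p = 0.246). Cnn3 had 15.4, 19.9 and 18.6 in microgravity, against 22.0, 24.2 and 21.3 in static cells, again without overlap (ratio 0.794, adjusted p = 0.51). The smooth muscle calponin Cnn1 averaged 4.85 ± 1.74 in microgravity and 6.09 ± 1.88 in static cells, with overlapping groups. Tagln3, of neurons, was at the floor on 5 of 6 arrays. Transgelin itself (Tagln), a smooth muscle calponin relative that the letter rule does not take and that was looked up after the other values were seen, went the other way. It had 25.2, 24.6 and 31.8 in microgravity, against 21.5, 16.7 and 22.7 in static cells, also without overlap (ratio 1.34, limma adjusted p = 0.476).

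Myosin heavy and light chains form the motor that pulls on filaments. The regulatory light chain of non-muscle myosin is encoded by Myl12a and Myl12b. The groups overlapped for Myl12a and not for Myl12b. Myl12b had 19.2, 26.5 and 28.4 in microgravity 1, 2 and 3, against 52.0, 37.7 and 35.6 in static 1, 2 and 3, with every microgravity value below every static value (ratio 0.591, log2 change -0.76, SE 0.22, limma adjusted p = 0.26). Myl12a had 106, 148 and 141 in microgravity, against 149, 138 and 117 in static cells, and these overlapped (log2 change -0.04, 95% interval -0.54 to 0.46). The log2 change of Myl12b was -0.59 without static 1 and -0.87 without microgravity 3. Whether the changes of the 2 genes differ from each other was not tested. The essential light chain Myl6 averaged 125 ± 22.0 in microgravity and 132 ± 16.0 in static cells. Myl4, of atrial and embryonic muscle, was dim, with 0.287 to 0.335 in microgravity and 0.372 to 0.424 in static cells (adjusted p = 0.6). The non-muscle heavy chain Myh10 had 0.486, 0.392 and 0.181 in microgravity, against 0.193, 0.750 and 0.393 in static cells, with a wide spread within both groups. Every heavy chain measured (Myh2, Myh6, Myh7, Myh10 and the smooth muscle Myh11) was below the array median on all 6 arrays.

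Genes that nucleate, cap or feed filaments had 0 of 9 past the threshold by limma. Of the 4 subunits of the Arp2/3 complex, which starts branches, 0 had an unadjusted p under 0.05. Arpc1b had 31.2, 39.8 and 35.3 in microgravity, against 28.3, 41.1 and 34.0 in static cells (log2 change 0.05, 95% interval -0.40 to 0.50). Arpc1a and Arpc4 both had a log2 change of -0.36, with SEs of 0.23 and 0.29. The 5 tested cappers and profilins had log2 changes of -0.11 to 0.05, 0 of them past the threshold and 0 at an unadjusted p under 0.05 by limma. Profilin Pfn1, which delivers monomers to growing ends, had 47.3, 45.3 and 48.7 in microgravity, against 48.1, 41.1 and 47.5 in static cells. Its interval ran from -0.29 to 0.39, inside 1.5-fold either way, as did those of the capping protein genes Capza2 and Capzb. In all, 15 of the 57 genes (26.3%) had an interval inside 1.5-fold, against 21.1% of all genes tested. The 15 include Actn2, Tagln3 and Myh6, at the floor on 5 of 6 arrays, where the floor limits the spread. They also include the letter match Cnnm4. Among genes with a mean above the array median the count was 12 of 41 (29.3%), against 21.2% of all such genes.

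Adhesion and LIM-domain proteins, which anchor filaments at contact sites, had 5 of 7 values higher in microgravity, as had 4855 of all 8586 genes tested. By limma 0 passed the threshold. Against 11.5% of all genes, 1 of the 7 (14.3%) had an unadjusted p under 0.05. That gene was Zyx (zyxin), which gathers at strained filaments. It had 13.1, 14.8 and 11.1 in microgravity 1, 2 and 3, against 4.61, 11.4 and 7.41 in static 1, 2 and 3. The lowest microgravity value lay just below the highest static value (ratio 1.76, log2 change 0.82, SE 0.33, limma adjusted p = 0.424). The change was 0.48 without static 1 and 1.14 without static 2. Csrp1, Tln1 (talin, the link from integrins to actin) and Vasp (a filament elongator) had log2 changes of 0.38, 0.27 and 0.17, and their groups overlapped. Fhl1 had 17.0, 22.7 and 16.0 in microgravity, against 16.5, 15.8 and 18.5 in static cells, and Fhl2 had a log2 change of -0.12. Vinculin (Vcl), which joins talin to filaments, averaged 5.08 ± 2.68 in microgravity and 4.85 ± 2.00 in static cells.

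Srf had 8.28, 13.8 and 6.95 in microgravity 1, 2 and 3, against 3.80, 8.19 and 6.38 in static 1, 2 and 3. The mean was higher in microgravity, but the groups overlapped and the change did not pass (log2 change 0.66, 95% interval -0.18 to 1.51, limma adjusted p = 0.626). It was 0.36 without static 1, 0.38 without microgravity 2, 0.87 without microgravity 3 and 0.91 without static 2. Genes with a CArG box went in no single direction. Of the 12 tested genes with a box, 8 had lower and 4 higher values, with a median log2 change of -0.02 and a range of -0.53 (Cnn2) to 0.66 (Srf itself). Of the 41 tested genes with a window and no box, 22 had lower and 19 higher values, and 43.5% of all genes tested were lower. These 41 had a median of -0.01 and a range of -1.41 (Gsn) to 0.82 (Zyx). Among the 12, Acta1, Myl3, Myl7 and Vil1 were below the array median on every array. Binding of SRF was not measured, so the 12 and the 41 do not stand for SRF targets and other genes.

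**Figure D4:**
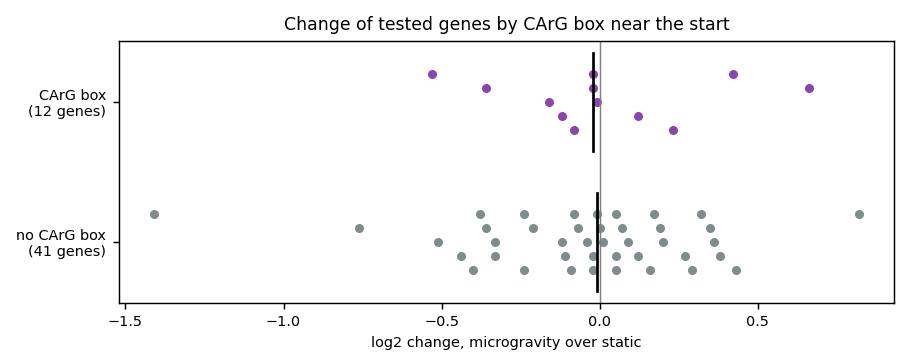
Log2 change of intensity, microgravity over static (x axis), of tested genes whose promoter windows hold a CArG box (12 genes, top) or do not (41 genes, bottom). Points are genes, spread vertically for legibility, and black bars are medians, at -0.02 and -0.01.

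Several of these genes differed more between arrays of 1 group than between the groups. Moesin (Msn), which ties filaments to the membrane, had 5.46, 5.78 and 1.77 in microgravity 1, 2 and 3, against 1.85, 5.86 and 3.69 in static 1, 2 and 3. Vcl had 7.10, 6.09 and 2.05 in microgravity, against 2.66, 5.33 and 6.57 in static cells. In both genes, and in Actn4, microgravity 3 and static 1 were the lowest arrays of their groups. The highest array of a group was 3.27 times the lowest for Msn in microgravity and 3.17 times in static cells, and 3.46 and 2.47 times for Vcl. Ezrin (Ezr), the relative of moesin, had 7.56, 10.7 and 5.95 in microgravity, against 5.90, 11.5 and 9.18 in static cells, with the same low arrays (log2 change -0.12, 95% interval -0.86 to 0.61).

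This array pattern was common on the arrays. Among the 41 actin-set genes with a mean above the array median, 14 (34.1%) were lowest on microgravity 3 and on static 1 in their groups, against 24.1% of all genes above the median, and 10 (24.4%) were highest on both, against 28.8%. The first 14 included Acta2, Actn4, Csrp1, Ezr, Msn, Srf, Tln1, Vasp, Vcl and Zyx, and the other 10 included Cnn1, Pfn1, Pfn2, Tpm2, Myl6 and Myl12b. Over all probes, which are not independent replicates, the deviations of microgravity 3 and static 1 from their group means correlated at 0.66. The labels give no batch for these arrays, and the source of the pattern was not tested. Without both arrays the log2 changes were -1.70 for Actn3, -1.26 for Gsn, 0.59 for Zyx and 0.56 for Srf, and 0 genes of the set passed by limma.

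**Figure D5:**
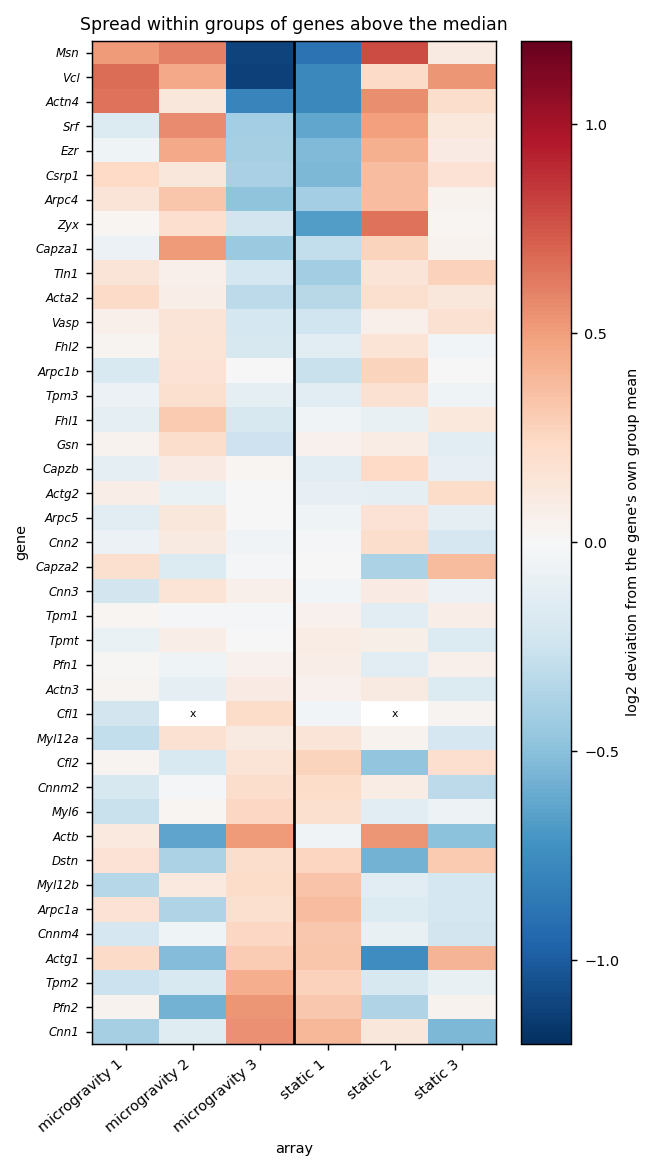
Deviation of each array (x axis) from the gene's own group mean, in log2 units (colour), for the 41 tested genes with a mean above the array median (y axis). Genes are ordered by their mean deviation on microgravity 3 and static 1, Msn, Vcl and Actn4 are low on both at the top, Cnn1 and Pfn2 are high on both at the bottom, and x marks an empty value.

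The 6 genes matched by letters only encode other proteins and had 0 members past the threshold by limma. At an unadjusted p under 0.05 there was 1 (16.7%, against 11.5% of all genes). Tpmt, a methyltransferase of thiopurine drugs, had 2.22, 2.47 and 2.35 in microgravity, against 3.38, 3.32 and 2.84 in static cells (ratio 0.739, adjusted p = 0.353). Cnnm2, a membrane protein of magnesium handling, had 5.18, 5.84 and 6.84 in microgravity, against 9.08, 8.30 and 6.31 in static cells, with overlap. Without these 6, the actin-related genes tested numbered 51, of which 2 fell, 5 were lower and 1 higher at an unadjusted p under 0.05, and the median log2 change was again -0.02.

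Other genes of the actin system, in 4 lists, held 0 genes past the threshold by limma. Their counts stand against all genes tested, of which 43.5% had lower values, 5.7% were lower and 5.79% higher at an unadjusted p under 0.05, and the median log2 change was 0.05. Of 27 genes of nucleation and monomer binding, 10 had lower and 17 higher values, with 3 lower and 1 higher at an unadjusted p under 0.05 (14.8% in all, against 11.5%) and a median of 0.08. Thymosin beta 4 (Tmsb4x), which holds monomers in reserve, was among the 3. It had 71.8, 78.6 and 88.3 in microgravity, against 141, 136 and 121 in static cells (ratio 0.600, limma adjusted p = 0.163). Tmod2, which caps slow-growing ends, and Twf2, which binds monomers, had ratios of 0.539 and 0.726, and the formin Diaph3 had 1.86. Tmod2 and Diaph3 were below the array median in both groups.

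Of 30 bundling and linker genes, 22 had lower values in microgravity and 8 higher, with 5 lower and 0 higher at an unadjusted p under 0.05 (16.7% in all, against 11.5% of all genes) and a median of -0.13. Marcks, which binds filaments at the membrane, had 81.6, 79.4 and 99.9 in microgravity, against 163, 131 and 125 in static cells, without overlap (ratio 0.623, limma adjusted p = 0.243). Pdlim7, an adaptor on filaments, had a ratio of 0.470, the integrin-linked kinase Ilk 0.661 and the drebrin-like Dbnl 0.761. Their adjusted p-values were 0.186 to 0.456.

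Of 14 cofactors and further targets of SRF, MRTF or YAP, 11 had higher values in microgravity and 3 lower, with 1 higher and 1 lower at an unadjusted p under 0.05 (14.3% in all, against 11.5% of all genes) and a median of 0.26. The growth factor-like Ccn2, a target of YAP, had 46.7, 54.7 and 55.3 in microgravity, against 23.8, 33.9 and 34.4 in static cells, without overlap (ratio 1.72, limma adjusted p = 0.182). The YAP target Amotl2 had a ratio of 1.40, and Tead2, a DNA-binding partner of YAP, 0.792. Smoothelin (Smtn), of contractile smooth muscle, went the other way, with 0.994, 1.17 and 1.08 in microgravity, against 1.81, 2.27 and 2.06 in static cells (ratio 0.528, adjusted p = 0.109). Of 6 smooth muscle markers outside the 60 genes, Smtn included, 1 was lower and 0 higher at an unadjusted p under 0.05, and 4 were below the median on every array. Summed over those 6, intensity was 2.19 to 3.23 in microgravity and 3.14 to 3.40 in static cells. The 3.23 was on microgravity 2 and held 1.13 from Myocd, which had 0.1 to 0.148 on the other arrays. Of 8 unconventional myosins (Myo genes), 0 passed, 0 had an unadjusted p under 0.05 by limma and the median was -0.12.

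Marker lists of adipocytes, chondrocytes, macrophages and blood, and endothelium and epithelium held 0 genes past the threshold by limma. Tested genes numbered 6 for adipocytes, 6 for chondrocytes, 4 for macrophages and blood and 7 for endothelium and epithelium. Of these 1, 0, 0 and 0 had an unadjusted p under 0.05, as had 11.5% of all genes tested. Summed intensity was 35.9 to 41.6 in microgravity and 42.8 to 50.6 in static cells for adipocytes, 2.73 to 3.07 and 2.89 to 3.62 for chondrocytes, 10.1 to 16.5 and 14.0 to 17.7 for macrophages and blood, and 0.923 to 1.23 and 0.954 to 1.04 for endothelium and epithelium, in the same order. The adipocyte gene was Lpl, a lipase, with 8.64, 11.6 and 9.39 in microgravity, against 17.5, 16.0 and 17.2 in static cells (ratio 0.581). Fabp4, the brightest of that list, overlapped, with 24.7 to 27.7 in microgravity and 22.0 to 30.6 in static cells. Of the 6 adipocyte genes 3 had lower and 3 higher values. Most of the macrophage and blood sum was Cd14, with 7.20 to 14.0 in microgravity and 10.6 to 15.3 in static cells.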

How the data were processed

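Expression was measured in 6 samples of 2T3 cells, 3 in simulated microgravity and 3 static, on 1 array each. The deposited table holds a linear intensity for 10500 probes per array, and the sources used here do not say how the authors scaled it. Empty cells numbered 68 to 163 per array, and 0 to 6 values were below 0. Each array was divided by its median, floored at 0.1 and put on the log2 scale. Probes at the floor on every array (290) or lacking 2 values in either group were not tested (354 in all). The 10146 left were tested with limma (version 3.58.1, R 4.3.3; lmFit and eBayes with an intensity trend, 2-sided, Benjamini-Hochberg, threshold 0.05). Group values are mean ± SD over 3 arrays, SEs are from limma, and ratios are microgravity over static from mean log2 values, which the floor shrinks for dim genes.

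Symbols came from GEO's platform annotation, in which 8983 probes had 1 symbol, 1 had several and 1516 had none. All 60 genes matched by identifier to the RefSeq table and 0 symbols changed. Each of the 60 had 1 probe. The genes and lists were chosen with earlier results of these data known. Array values are given for genes past the threshold or at an unadjusted p under 0.05 and for the probe with the highest mean in each role, and in the other lists up to 4 genes with the smallest p are named. Genes outside that rule are named for their role, their overlap or their spread. The labels do not say whether replicate numbers pair the arrays. Deviations from group means of arrays with the same number correlated at -0.21, 0.45 and -0.18 for numbers 1, 2 and 3. Microgravity 2 and static 2 also had the most empty cells, 163 and 134, against 68 to 75 on the other arrays. No tables of the authors' comparisons were used. One further list of genes is not reported here.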

Additional observations from a re-analysis of the deposited data

How the results depend on the processing

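Both calls rest on all 6 arrays. The 28 probes past the threshold on the whole array became 54 with quantile normalization, 56 with cyclic loess normalization, 53 with the floor at 0.05 of the median, 59 with no floor, also 59 without the dimmest 25% of probes, and 115 with array weights, 36 with a floor of 0.5 and 19 without the intensity trend. The 2 actin genes, Actn3 and Gsn, passed in each of these except without the trend, where 1 passed, Actn3. Probes and actin genes past the threshold were 0 and 0 by limma with the replicate number as a block, without static 2 and microgravity 2 together, without microgravity 3 and static 1 together (chosen after seeing the data), and in each of the 6 fits without a single array (range 0 to 0, with 761 to 968 probes and 5 to 7 actin genes at an unadjusted p under 0.05). With the block 938 probes and 7 actin genes were at that level, with 848 and 6 and with 719 and 4 in the fits without those pairs of arrays. With the block the limma adjusted p was 0.27 for Actn3 and 0.245 for Gsn. The labels do not say whether the numbers pair the arrays. The fits with fewer arrays or the block have fewer residual degrees of freedom. At an adjusted p under 0.1 the actin genes called were again 2. The signs of Actn3 and Gsn were kept in all 17 alternative fits. The median of the actin genes stayed at -0.09 to 0.

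Signs turned for up to 12 of the genes per fit, each with a reported change under 0.3 in size. Among genes whose array values the naming rule calls for, these were Arpc1b (-0.02 with quantile, -0.03 with cyclic loess, -0.09 without microgravity 3 and static 1), Pfn1 (-0.03 with cyclic loess), Actb (0.22 with array weights, 0.49 without static 2 and microgravity 2), Fhl1 (0 with array weights, -0.09 without static 2 and microgravity 2) and Myh10 (0.10 with array weights, 0.11 without static 2 and microgravity 2). Over the 6 fits with 1 array left out, values ranged across 0 for Arpc1b (-0.08 to 0.19), Actb (-0.34 to 0.23), Fhl1 (-0.04 to 0.21), Ezr (-0.39 to 0.09), Myh10 (-0.74 to 0.24), Myl12a (-0.14 to 0.11), Tpm3 (-0.11 to 0.07) and Pfn1 (-0.02 to 0.09). The cause was not tested. Using the dimmer probe per symbol changes nothing, since each gene had 1 probe.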
